A study of Mus musculus with 18 samples.

Results

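The 40 genes described here encode antiviral effectors and regulators that interferons switch on, and they were picked by symbol from the 25926 genes of an RNA-seq table of bone marrow-derived macrophages (BMDMs). The BMDMs came from C57BL/6J mice (strain entered as C57BL/6), were differentiated over 7 days in medium with M-CSF (50 ng/mL), and were then cocultured across a Transwell membrane (0.4 μm pores) with renal tubular epithelial cells (TECs) of wild-type mice. There were 18 samples, 6 in each of 3 groups. In the NC group, BMDMs given PBS were cocultured with TECs that had received no crystals. In the COM group, BMDMs given PBS faced TECs that were exposed for 24 h to 100 μg/mL of calcium oxalate monohydrate (COM), the commonest crystal of kidney stones. In the COM+Met group the TECs were exposed to COM in the same way and the BMDMs were given 5 mM Met, which the sample labels do not spell out. No group carried a genetic change. Nothing in the labels tells if the samples within a group are separate mice or cultures, so the p-values measure the spread between these samples only, which may be technical.

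Type I interferons bind a receptor made of Ifnar1 and Ifnar2, whose kinases Jak1 and Tyk2 phosphorylate transcription factors of the Stat family. A complex that holds Stat2 and Irf9 enters the nucleus and binds the interferon-stimulated response element (ISRE) in front of antiviral genes, while interferon gamma acts mainly through the gamma-activated site (GAS). The products block viruses at entry, translation, genome copying and budding, and macrophages are known for switching this programme on in response to microbes and to tissue damage alike.

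The ISRE is the best known control element of such genes, so its letters were looked for in front of each member and are shown for 4 members with large changes, which were chosen after their values were seen. RefSeq windows (GRCm38.p6) from 250 bases before to 50 bases after the start of transcription were at hand for 31 of the 40 members. The letters GAAANNGAAA, or TTTCNNTTTC when read on the other strand, were found for 10 of the 31 members (32.3%), compared with 3.99% of 27025 genes with a window. Counted by window, these were 11 of 38 windows of members (28.9%) and 3.44% of all 32851 windows. The 10 members were Isg15, Rsad2, Bst2, Lgals9, Eif2ak2, Trim21, Trim30a, Trim30d, Ddx60 and Phf11b. In the stretches below, each written 5′ to 3′ on the strand of the gene, capitals mark the match or the run of overlapping matches. They lie on the minus strand at chr4:156200845-156200926 (Isg15), chr12:26456533-26456602 (Rsad2), chr14:59341341-59341410 (Phf11b) and chr8:71537557-71537632 (Bst2).
Isg15: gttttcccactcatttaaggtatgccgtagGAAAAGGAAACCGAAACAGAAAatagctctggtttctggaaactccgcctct
Rsad2: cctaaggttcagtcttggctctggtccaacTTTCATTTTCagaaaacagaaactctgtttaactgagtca
Phf11b: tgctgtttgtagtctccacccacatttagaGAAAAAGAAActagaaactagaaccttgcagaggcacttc
Bst2: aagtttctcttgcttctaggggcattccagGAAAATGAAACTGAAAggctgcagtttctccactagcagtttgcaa
The Isg15 stretch holds 3 overlapping matches, that of Bst2 holds 2 overlapping matches, and the match of Rsad2 reads on the other strand. The GAS letters TTCNNNGAA, which read alike on both strands, were found in front of 4 of the 31 members (12.9%), namely Isg20, Bst2, Ifi35 and Eif2ak2, compared with 9.55% of genes with a window. A match is a description of the letters and not of a factor bound there. In COM against NC the median difference was 3.38 on the log2 scale for the 10 members with ISRE letters and 2.47 for the 21 without, with ranges of 1.36 to 5.44 and of 1.21 to 4.72.

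Several libraries stood apart from the rest of their group over the 10751 genes that averaged 1 FPKM or more (fragments scaled to gene length and to the sample total). Pearson correlations of log2(FPKM + 1) were 0.992 to 0.994 among COM-1 to COM-3 and 0.995 between COM-4 and COM-5, but 0.948 to 0.951 between these sets and 0.888 to 0.935 between COM-6 and any other COM sample. NC-5 and NC-6 correlated at 0.938 to 0.962 with NC-1 to NC-4, and the COM+Met samples at 0.989 to 0.995 with each other. FPKM summed to between 380731 and 449186 per sample, a sum that is not the read depth, which is unknown. All 8 macrophage markers reached a mean of 1 FPKM, but not all were alike across the groups. Adgre1 was at 98.6 to 120 FPKM in NC and 518 to 669 in COM, and Fcgr1 at 6.93 to 9.17 and 46.6 to 149. The other macrophage markers overlapped between NC and COM. Within NC, Csf1r was at 146 and 136 FPKM in NC-5 and NC-6 and 328 to 356 in NC-1 to NC-4, while Mertk was higher in NC-5 and NC-6. Of 12 tubular epithelial markers, 10 stayed below 1 FPKM in every sample, and their sum was 10.9 to 18.2 FPKM in NC, most of it Cdh1, 0.468 to 1.37 in COM and 0.0575 to 0.332 in COM+Met. Summed neutrophil markers, mostly S100a8 in COM, moved with the split of the COM libraries, at 307 to 330 FPKM in COM-1 to COM-3, 34.2 to 67.5 in COM-4 to COM-6, 19.5 to 45.5 in COM+Met and 394 to 597 in NC. S100a9 was at 114 to 259 FPKM in NC, 12.2 to 17.8 in COM-1 to COM-3 and 1.34 to 2.79 in COM-4 to COM-6. Camp did not follow the split in full, at 8.60 to 10.2 FPKM in COM-1 to COM-3, 8.63 in COM-4, 8.01 in COM-5 and 2.57 in COM-6. The summed dendritic markers, mostly Ccr7, were at 204 to 223 FPKM in COM-1 to COM-3, 63.9 to 68.5 in COM-4 to COM-6, 38.2 to 75.9 in COM+Met and 2.59 to 24.8 in NC. Summed fibroblast and endothelial markers were at 12 to 30.9 FPKM in NC, 1.58 to 16.6 in COM and 0.309 to 1.90 in COM+Met, and the sums for T and NK cells and for B cells did not exceed 1.24 and 0.307 FPKM. The part of these cells or states in the values below was not tested, and fewer cells of a type cannot be told apart from less RNA per cell in such bulk samples.

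All 40 members were higher in COM than in NC. Each passed an adjusted p of 0.05 with at least a 2-fold difference, and in each the lowest COM sample lay above the highest NC sample. Over all 10900 genes tested, 5.99% were called higher by the same rule and 8.60% were higher with no overlap between the groups. The members were chosen with earlier results of these data known. Counts of members beside such shares, here and below, are therefore a description and no test of the list. The median difference of the members was 2.77 on the log2(FPKM + 1) scale, from 1.21 for Daxx to 5.44 for Isg15, while the median of all genes tested was -0.27. With size factors that centre all genes, the members' median was 3.07. As a ratio of group means in FPKM, the rise ran from 2.61 for Daxx to 298 for Ifi44, with a median of 6.98. All 40 averaged more than the 1 FPKM required for testing over the samples of both groups together. Ifi44, Mx2 and Phf11d averaged only 0.176, 0.745 and 0.827 FPKM in NC. They passed this filter through their values in COM, or in COM+Met in the comparison of that group with NC below.

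**Figure D1:**
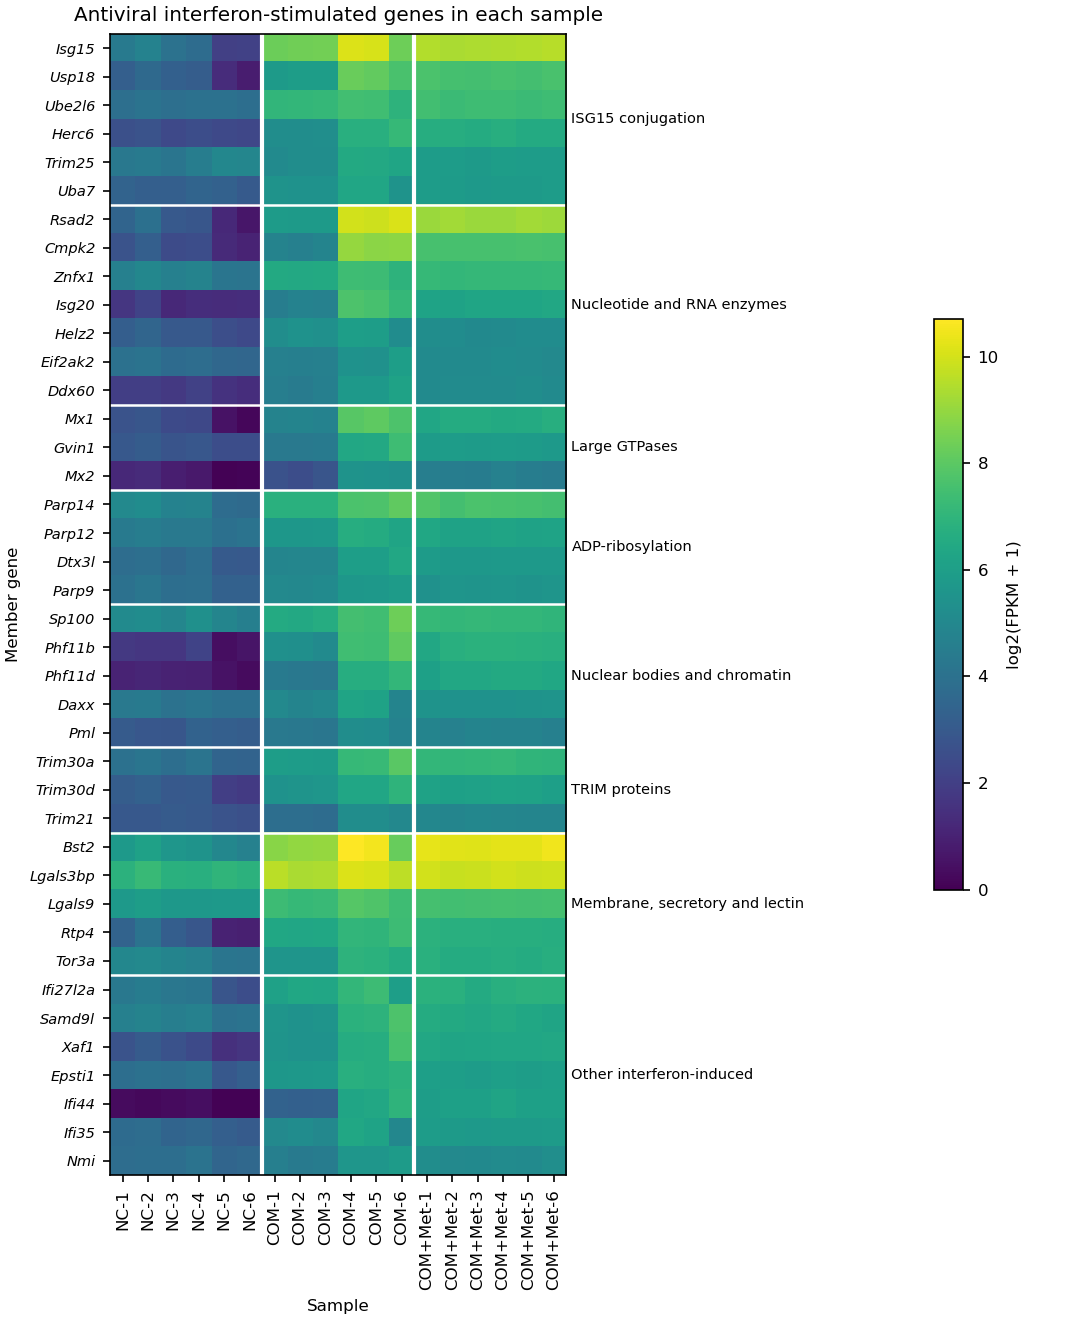
Heat map of log2(FPKM + 1) for the 40 members (rows, grouped by role) in the 18 samples (columns, with white lines between the groups). Within each row NC is darkest, COM-4 and COM-5 are brighter than COM-1 to COM-3, and the 6 COM+Met columns look alike.

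The first role group holds the ubiquitin-like protein ISG15 and the enzymes that attach it to other proteins or remove it. Isg15 was at 3.03 to 26.1 FPKM in NC (median 14.1), 311 to 1143 in COM (median 341) and 645 to 760 in COM+Met (median 699). NC-5 and NC-6 were the lowest NC samples, at 3.03 and 3.15 FPKM, and COM-4 and COM-5 were far above the other 4 COM samples. The difference between COM and NC was 5.44 ± 0.54 (log2, SE, limma adjusted p = 5.42e-06). Usp18, the protease that removes ISG15 from its targets and also damps the interferon receptor, was at 0.822 to 11.6 FPKM in NC (median 8.21), 55.9 to 307 in COM (median 131) and 180 to 202 in COM+Met (median 189). Again NC-5 and NC-6 were lowest and COM-4 to COM-6 were all above COM-1 to COM-3, and the log2 difference was 4.38 ± 0.60 (limma adjusted p = 7.28e-05). Trim25, a ligase for ISG15 that also activates the RNA sensor RIG-I, was at 16.6 to 30.1 FPKM in NC (median 20.9), 34.3 to 89.3 in COM (median 57.4) and 56.6 to 60.9 in COM+Met (median 59.7). Unlike the other members it was highest among the NC samples in NC-5 and NC-6, and it had the second smallest rise, 1.28 ± 0.27 (limma adjusted p = 0.00188). The remaining enzymes of the pathway rose as well, by 2.47 for the activating enzyme Uba7, 3.20 for the conjugating enzyme Ube2l6 and 3.60 for the ligase Herc6. All 6 genes of the group were called, with a median of 3.40.

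The 7 enzymes and helicases that act on nucleotides or RNA had a median difference of 3.43, and all were called. Rsad2 encodes viperin, which makes a chain-ending nucleotide, and rose from 0.574 to 14.4 FPKM in NC (median 6.59) to 55.5 to 1099 in COM (median 505). The COM values fell far apart, with 55.5 to 57.5 FPKM in COM-1 to COM-3 and 952 to 1099 in COM-4 to COM-6, but even the lowest was above all NC samples. The log2 difference was 5.40 ± 0.94 (limma adjusted p = 0.000464). Cmpk2, the mitochondrial kinase of CMP and UMP, is its neighbour and followed the same order, with 1.08 to 8.47 FPKM in NC (median 4.57) and 24.6 to 512 in COM (median 245). COM-1 to COM-3 were at 24.6 to 27.3 FPKM and COM-4 to COM-6 at 463 to 512, and the log2 difference was 4.62 ± 0.88 (limma adjusted p = 0.000823). The genes are divergent, with Rsad2 on the minus strand and Cmpk2 on the plus strand of chr12:26442746-26479837 (GRCm38), 12751 bases apart. Of the others, the RNA exonuclease Isg20 rose by 4.54, the helicase Ddx60 by 3.43, the helicases Helz2 and Znfx1 by 2.60 and 2.30, and Eif2ak2, the RNA-activated kinase PKR that stops translation, by 1.36.

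Among the 3 large GTPases, Mx1, whose product traps viral nucleocapsids and whose allele is defective in most laboratory mouse strains, was at 0.147 to 6.38 FPKM in NC (median 4.17), 25.5 to 261 in COM (median 120) and 80.4 to 103 in COM+Met (median 93.4). NC-5 and NC-6 had the lowest values, and COM-1 to COM-3 lay at 25.5 to 27.5 FPKM against 212 to 261 in COM-4 to COM-6. Mx1 rose by 4.48 ± 0.75 (log2, limma adjusted p = 0.00033), and its neighbour and paralogue Mx2 by 3.34 from a median of 0.77 FPKM in NC. Gvin1, a very large GTPase with close copies in the genome, was at 4.71 to 7.56 FPKM in NC (median 6.12), 19.2 to 165 in COM (median 52.1) and 53.6 to 59.6 in COM+Met (median 57.4). Its highest value by far was in COM-6, and its log2 difference was 2.76 ± 0.50 (limma adjusted p = 0.000592). How reads shared by paralogues were split is not given in the sources used here, and how alike the copies are was not measured. The values of Mx1 and Mx2, Gvin1, Trim30a and Trim30d, Phf11b and Phf11d, and Ifi27l2a are uncertain to that extent.

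The 4 genes of ADP-ribosylation had the lowest median of the role groups, 1.90, and all were called. Parp14, a mono-ADP-ribosyltransferase, was at 12.1 to 36.2 FPKM in NC (median 26.1), 109 to 271 in COM (median 157) and 181 to 219 in COM+Met (median 196). The groups did not overlap, NC-5 and NC-6 were lowest in NC and COM-6 was highest of all, and the log2 difference was 2.77 ± 0.32 (limma adjusted p = 1.81e-05). Parp12, which binds RNA in stress granules, was at 14.6 to 22.5 FPKM in NC (median 19.1) and 49.2 to 102 in COM (median 63.3), a rise of 1.82 ± 0.20 (limma adjusted p = 1.36e-05). Parp9 and its partner Dtx3l, a ubiquitin ligase, rose by 1.63 and 1.98. These genes overlap by their ends on opposite strands of chromosome 16. The strand setting of the counting is not given, so how reads from the shared stretch were assigned is unknown.

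Of the 5 genes of nuclear bodies and chromatin, the PHD finger genes Phf11b and Phf11d changed most, and all 5 were called. Phf11b was at 0.332 to 3.48 FPKM in NC (median 2.22), 33.9 to 275 in COM (median 103) and 85.5 to 115 in COM+Met (median 110). Phf11d, next to it on chromosome 14, was at 0.233 to 1.23 FPKM in NC (median 0.989), 17.8 to 133 in COM (median 60.0) and 67.8 to 89.9 in COM+Met (median 85.5). Both were lowest in NC-5 and NC-6 and highest in COM-6, and they rose by 5.07 ± 0.54 and 4.72 ± 0.52 (log2, limma adjusted p = 9.7e-06 and 1.18e-05). Sp100, a scaffold of nuclear bodies, was at 23.5 to 40.1 FPKM in NC (median 31.3) and 87.2 to 328 in COM (median 133), a rise of 2.13 ± 0.29 (limma adjusted p = 7.53e-05). Daxx, a histone chaperone of the same bodies, had the smallest rise of the 40, from 14.6 to 20.2 FPKM in NC (median 16.1) to 27.6 to 75.2 in COM (median 31.3). Only COM-4 and COM-5 were far above NC, and the log2 difference was 1.21 ± 0.26 (limma adjusted p = 0.00179). Pml, which builds the bodies, rose by 1.57.

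The tripartite motif proteins Trim30a and Trim30d, neighbours on chromosome 7, had ISRE letters in front of both genes. Trim30a, which restrains signalling from Toll-like receptors, was at 9.52 to 17.1 FPKM in NC (median 14.3), 58.6 to 246 in COM (median 103) and 125 to 138 in COM+Met (median 132). Trim30d was at 2.50 to 9.03 FPKM in NC (median 6.98), 43.0 to 124 in COM (median 63.4) and 65.5 to 72.8 in COM+Met (median 69.4). In both, COM-6 was highest and the groups of COM and NC did not overlap, and the rises were 2.86 ± 0.35 and 3.33 ± 0.32 (log2, limma adjusted p = 2.71e-05 and 4.27e-06). Trim21, the cytosolic antibody receptor, rose by 1.61.

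The membrane and secreted genes Bst2 and Lgals3bp had the highest mean FPKM of the 40 over all 18 samples, and all 5 genes of their group were called. Bst2, or tetherin, which holds budding virions at the cell surface, was at 25.3 to 68.6 FPKM in NC (median 46.5), 299 to 1671 in COM (median 504) and 1169 to 1440 in COM+Met (median 1239). COM-6 was the lowest COM sample, COM-4 and COM-5 the highest, and the rise over NC was 3.92 ± 0.41 (log2, limma adjusted p = 8.97e-06). Lgals3bp, a secreted glycoprotein that binds galectins, was at 108 to 147 FPKM in NC (median 118), 658 to 1132 in COM (median 780) and 907 to 1007 in COM+Met (median 956). Its NC samples showed no gap between NC-5 and NC-6 and the rest, and it rose by 2.76 ± 0.15 (limma adjusted p = 5.06e-08). Of the others, Rtp4, which binds viral RNA, rose by 4.16, galectin Lgals9 by 1.69 and the torsin ATPase Tor3a by 1.54.

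The remaining 7 interferon-induced genes had a median difference of 2.58, and all were called. Ifi44, a cytoplasmic protein, was the member closest to silent in NC, at 0.03 to 0.303 FPKM (median 0.213), and was at 8.75 to 125 in COM (median 43.2) and 62.1 to 74.9 in COM+Met (median 67.0). COM-1 to COM-3 lay at 8.75 to 9.20 FPKM and COM-4 to COM-6 at 77.2 to 125, and the log2 difference of 4.72 ± 0.65 (limma adjusted p = 7.44e-05) understates the ratio of a gene this low in NC. Ifi27l2a, a small membrane protein, was at 4.79 to 21.3 FPKM in NC (median 17.3) and 62.4 to 159 in COM (median 81.7), a rise of 2.79 ± 0.37 (limma adjusted p = 5.37e-05). Samd9l, which restricts poxviruses, was at 14.9 to 26.7 FPKM in NC (median 23.5) and 42.6 to 212 in COM (median 80.2), a rise of 1.88 ± 0.37 (limma adjusted p = 0.00107). COM-6 was the lowest COM sample for Ifi27l2a and the highest for Samd9l. Nmi, which binds Stat proteins, had the third smallest rise of the 40, with 10.2 to 15.9 FPKM in NC (median 13.5) and 20.6 to 57.8 in COM (median 35.7), or 1.31 ± 0.26 (limma adjusted p = 0.00106). Xaf1, a promoter of cell death, rose by 3.88, Epsti1 by 2.58 and Ifi35, the partner of Nmi, by 1.97.

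**Figure D2:**
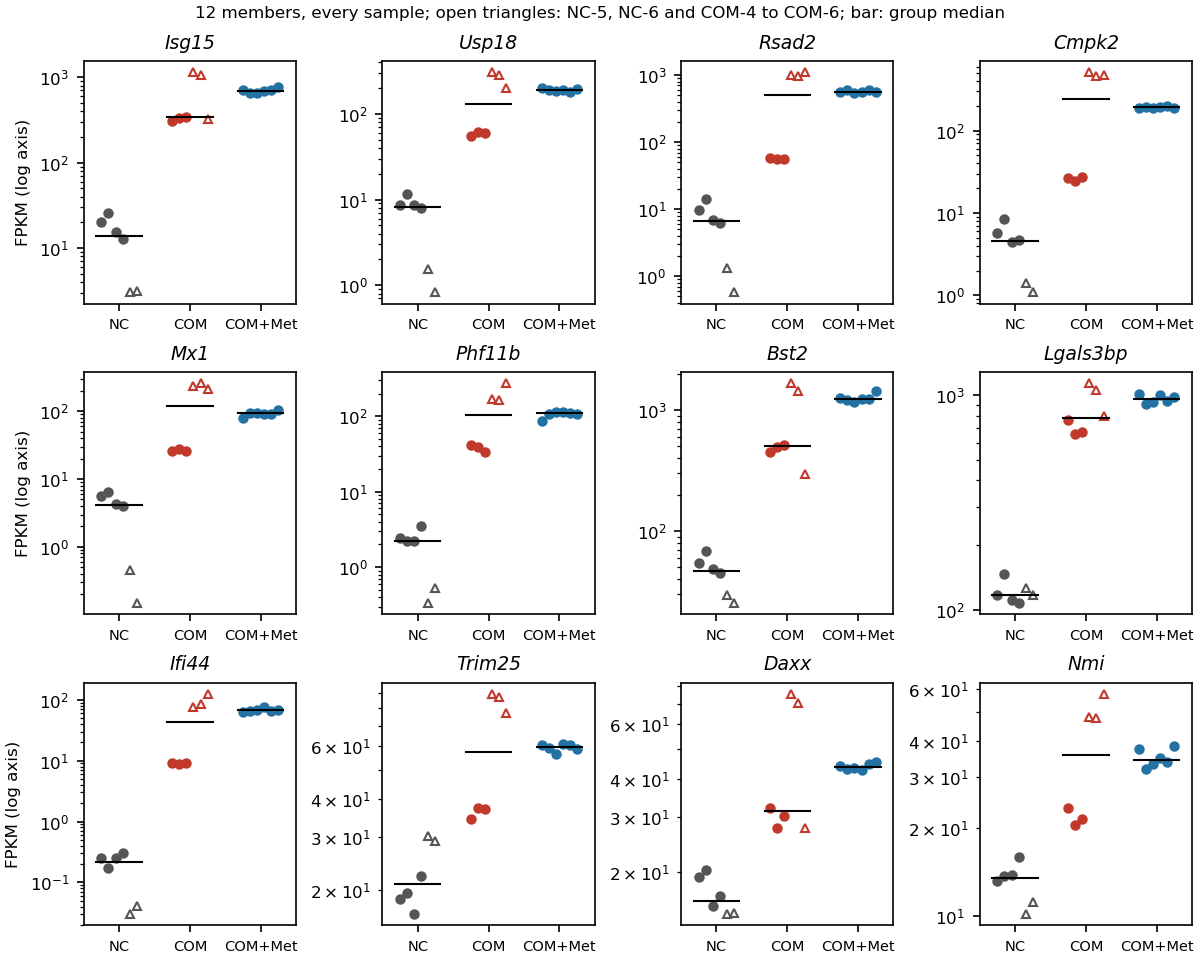
FPKM (log axis) of 12 members in every sample of NC, COM and COM+Met, with a bar at each group's median and open triangles for NC-5, NC-6 and COM-4 to COM-6. The COM points of Rsad2 and Cmpk2 form clusters at 55.5 to 57.5 and 952 to 1099 FPKM and at 24.6 to 27.3 and 463 to 512 FPKM, with COM+Met between them.

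The comparison of COM with NC was repeated without the libraries that stood apart. Without NC-5 and NC-6, all 40 were called higher in COM, compared with 5.03% of all genes, with a median difference of 2.52. Without COM-6, NC-5 and NC-6, all 40 were called, compared with 5.15%, with a median of 2.42. When COM-4, COM-5 and COM-6 were left out, 34 were called, compared with 5.37%, and all 40 passed the adjusted p as higher, compared with 17.7%, with a median of 2.22. The exact permutation test on single members gave a p of 0.00216 for each of the 40, the smallest that 6 against 6 samples allow. That p follows from the lack of overlap given above and adds nothing to it. Among all 10900 genes, 937 were higher and 3232 lower without overlap.

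NC-5 and NC-6 were both below NC-1 to NC-4 for 33 of the 40 members, as they were for 27.1% of all 10751 genes. The gap was widest for Mx2, whose mean in NC-5 and NC-6 was 0.0468 of that in NC-1 to NC-4, and the median of this ratio over the members was 0.604. Those without the gap were Isg20, Pml, Lgals3bp, Lgals9, Ube2l6 and Uba7, and Trim25 went the other way with a ratio of 1.54.

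The COM libraries fell apart more than those of any other group. COM-4 and COM-5 were both above COM-1 to COM-3 for all 40 members, compared with 15.9% of all 10751 genes, and COM-4, COM-5 and COM-6 were all above them for 32, compared with 9.19%. Summed over the 40 members, FPKM made up 0.760% to 0.775% of the table in COM-1 to COM-3 and 1.92% to 2.12% in COM-4 to COM-6, beside 0.109% to 0.189% in NC and 1.47% to 1.55% in COM+Met. The coefficient of variation of a member within COM had a median of 50.0%, from 14.9% for Ube2l6 to 98.5% for Cmpk2. In NC the median was 26.6%, and in COM+Met it was 4.38%, from 1.77% for Cmpk2 to 10.2% for Phf11b. Cmpk2 was thus the member with the widest spread in COM and the narrowest in COM+Met. The coefficient of variation over all genes is not given. The correlations above show the splits of COM and NC over the whole table, so these spreads are not read as a trait of the members.

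COM-6 followed COM-4 and COM-5 for some members and COM-1 to COM-3 for others. It was above COM-1 to COM-3 for 32 of the 40 members, compared with 2717 of all 10751 genes. It was not above them for Isg15, Bst2, Ifi35, Ifi27l2a, Ube2l6, Uba7, Helz2 and Daxx. Its FPKM ran from 0.192 of the mean of COM-4 and COM-5 for Bst2 to 1.94 of it for Gvin1. This order followed base composition, with a Spearman correlation of -0.86 over the 40 members between the GC content of the longest transcript and the log2 difference of COM-6 from the mean of COM-4 and COM-5. Over 10322 genes of the same libraries it was -0.72. With transcript length the correlation was weaker, at 0.44 over the members and 0.33 over the 10322 genes. Of the 20 members with the lowest GC content (38.8% to 47.4%), 17 were higher in COM-6 than in both COM-4 and COM-5. Of the 20 with the highest (47.5% to 57.4%), 18 were lower than in both. Among all 40 members 19 were higher than in both and 20 lower, and among all 10751 genes 4091 and 5824. The part of base composition or transcript length in the values of COM-6 was not tested.

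**Figure D3:**
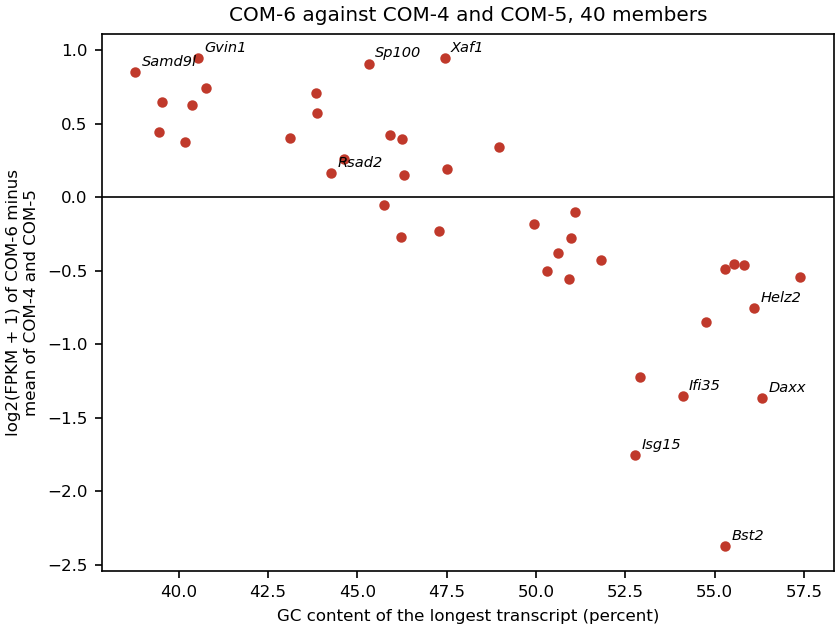
Log2(FPKM + 1) of COM-6 minus the mean of COM-4 and COM-5 for each of the 40 members (y axis), against the GC content in percent of its longest GENCODE transcript (x axis). The points run from above 0 at low GC content, as for Gvin1 and Samd9l, to far below 0 for Isg15 and Bst2.

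COM+Met was compared with NC as well, and all 40 members were again called higher, compared with 5.66% of 10786 genes tested. The groups did not overlap for any member, which held for 14.1% of genes in the higher direction. The median log2 difference was 3.05, from 1.34 for Daxx to 6.63 for Rsad2, which rose from 0.574 to 14.4 FPKM in NC to 547 to 605 in COM+Met (median 555). Its SE was 0.47 (limma adjusted p = 4.27e-08). Isg15 followed with 5.94 ± 0.44 (limma adjusted p = 5.74e-08). Ifi44 differed by 5.87 ± 0.07 (limma adjusted p = 1.13e-14), and Cmpk2, at 189 to 199 FPKM in COM+Met (median 191), by 5.38 ± 0.31 (limma adjusted p = 7.03e-09). The SE and p of Ifi44 rest on NC values of 0.03 to 0.303 FPKM, with a coefficient of variation of 66.2%. The 1 FPKM added before the log hides most of that spread. This comparison and that of COM with NC share the NC samples.

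**Figure D4:**
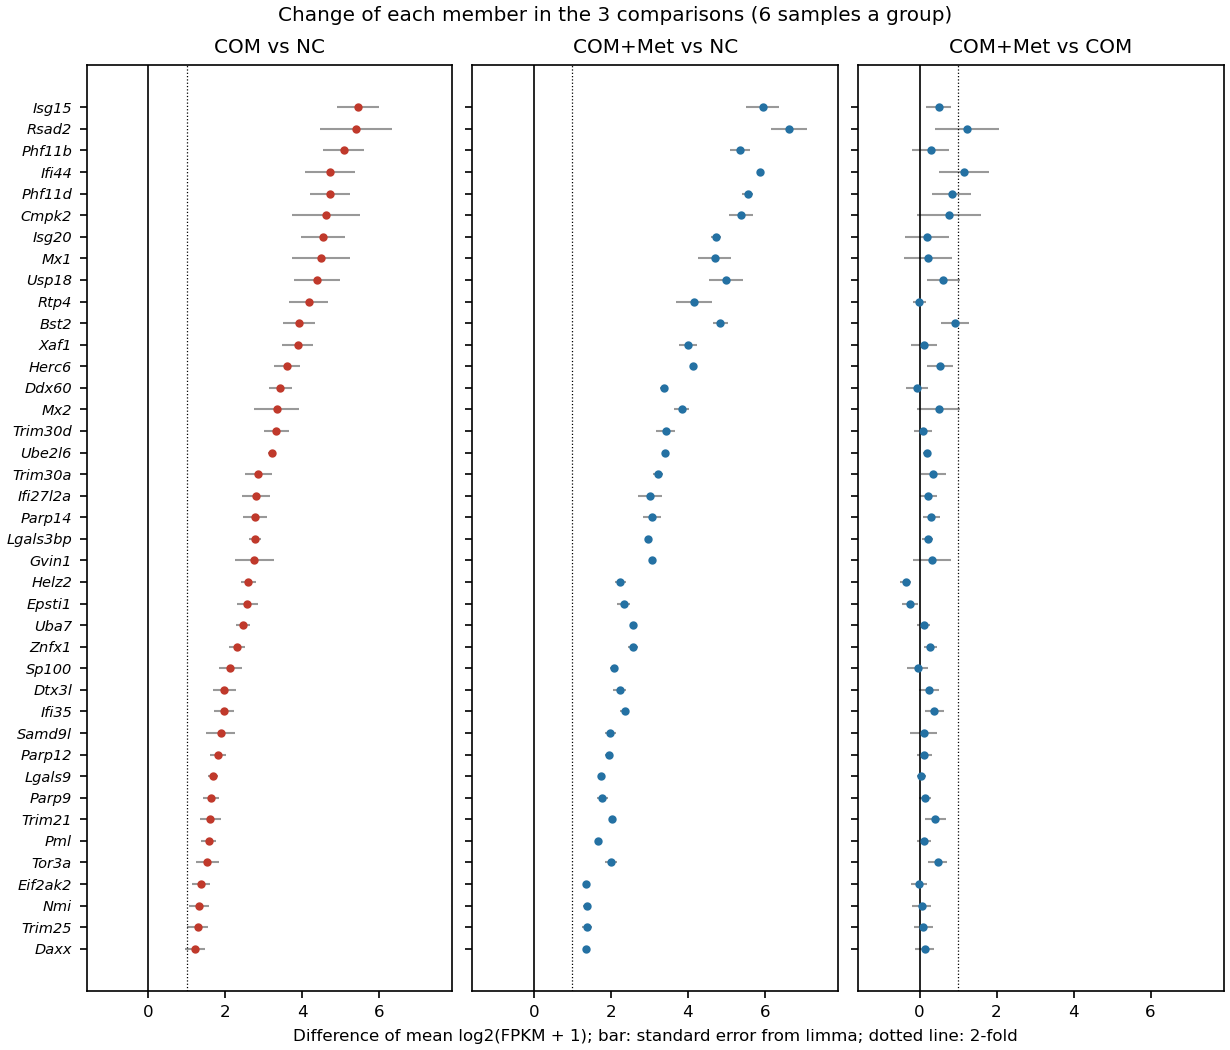
Difference of mean log2(FPKM + 1) for each member with its limma standard error, in COM against NC, COM+Met against NC and COM+Met against COM (6 samples a group). The dotted line marks 2-fold. All 40 points lie right of it in the first 2 panels, and in the last the points lie between -0.36 and 1.23.

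Between COM+Met and COM no member passed the test when all 6 COM samples were kept. None of the 40 reached an adjusted p of 0.05 in limma, compared with 13.4% of 10364 genes tested in either direction, and 2 members, Bst2 and Helz2, had an unadjusted p under 0.05, compared with 28.6% of genes. The median log2 difference was 0.21, from -0.36 for Helz2 to 1.23 for Rsad2. The mean of log2(FPKM + 1) was higher in COM+Met for 34 of the 40, compared with 5238 of all 10364 genes. By role the median log2 differences lay between 0.11 for the other interferon-induced genes and 0.36 for the TRIM proteins. As a ratio of group means in FPKM, the median was only 1.03, from 0.703 for Mx1 to 1.55 for Bst2. The direction of a member thus depended on how the spread COM samples were averaged. The intervals were wide. For Rsad2 the 95% interval of the difference ran from -0.56 to 3.02 and for Mx1 from -1.13 to 1.56, so that a 2-fold rise lay within both and a 2-fold fall within that of Mx1. It was narrower for Ube2l6, from -0.02 to 0.42, and for Lgals9, from -0.22 to 0.31. Bst2 differed by 0.92 ± 0.37 (interval 0.12 to 1.72, limma adjusted p = 0.118). Helz2 was at 36.4 to 63.6 FPKM in COM (median 41.4) and at 33.1 to 37.4 in COM+Met (median 35.8), a difference of -0.36 ± 0.14 (interval -0.66 to -0.05, limma adjusted p = 0.113). Its p by the exact permutation test was the lowest of the 40 in this comparison, 0.00649, without adjustment.

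For most members the COM+Met samples lay between clusters of COM samples. All 6 COM+Met samples were above COM-1 to COM-3 for 39 of 40 members, which held for 14.9% of all genes, and below COM-4 and COM-5 for 38, which held for 15.6%. They were in the gap for 37 members, as they were for 323 of all 10751 genes, with Parp14, Ube2l6 and Helz2 as the exceptions. For Rsad2, COM+Met was at 547 to 605 FPKM, between 55.5 to 57.5 in COM-1 to COM-3 and 952 to 1099 in COM-4 to COM-6. For Isg15, COM+Met at 645 to 760 FPKM lay above COM-1 to COM-3 and COM-6 and below COM-4 and COM-5 at 1143 and 1068. Helz2 was the exception to the former count, with 33.1 to 37.4 FPKM in COM+Met and 37.1 to 42.5 in COM-1 to COM-3. In Ube2l6 and Parp14, COM+Met samples overlapped with COM-4 or COM-5.

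The direction therefore turned with the COM libraries kept. Without COM-4, COM-5 and COM-6, 39 members passed the adjusted p as higher in COM+Met, compared with 17.8% of all genes, and 1, Helz2, as lower, and 16 were called higher at 2-fold, compared with 2.28%. The median difference was then 0.79. Without COM-1, COM-2 and COM-3, 21 members passed as lower, compared with 7.77% of all genes, and 0 as higher. Isg20, Mx1 and Cmpk2 were then called lower at 2-fold, compared with 1.28% of all genes, and the median was -0.40. These sets were set apart by their values and not by any label, the labels give no batch that separates them, and COM-6 has the base composition described above. The counts show how the comparison depends on the libraries and are no test of Met.

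**Figure D5:**
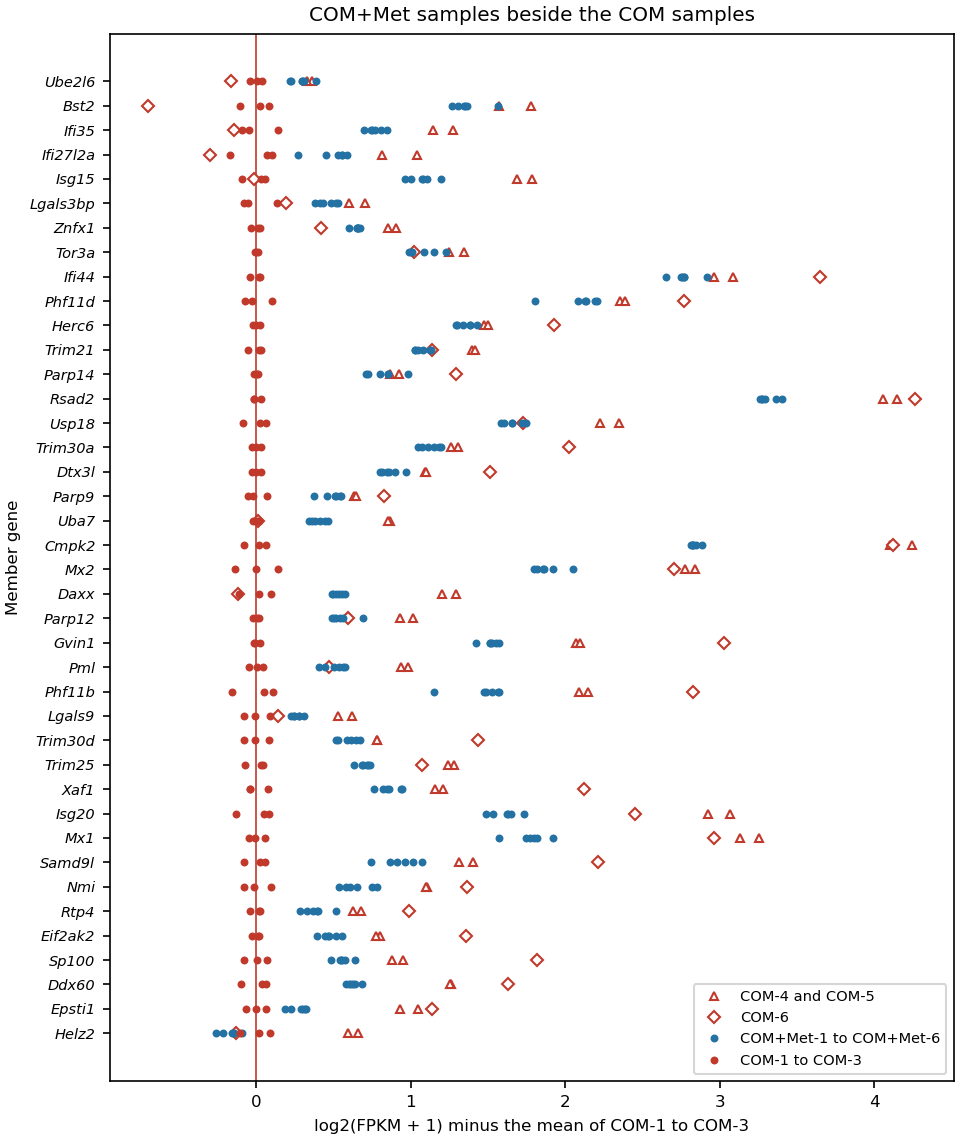
Log2(FPKM + 1) of each COM and COM+Met sample minus the mean of COM-1 to COM-3 (x axis) for the 40 members (y axis). The COM+Met dots lie right of COM-1 to COM-3 for 39 members and left of the COM-4 and COM-5 triangles for 38, while the COM-6 diamonds range from the far left (Bst2) to the far right.

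The genes upstream of the members were followed in a list of 40 other genes of the interferon pathway. Of 21 ligands, 16 were listed at 0 in every sample, and none reached a mean of 1 FPKM, so that none was tested. Ifnb1, encoding interferon beta, was at 0 to 0.194 FPKM in NC, 0 to 0.184 in COM-1 to COM-3, 0.76 to 0.835 in COM-4 to COM-6 and 0.195 to 0.653 in COM+Met. NC and COM-1 to COM-3 overlapped for it, while COM-4 to COM-6 were above both, and all values were below the level tested. Interferon gamma, Ifng, did not exceed 0.0622 FPKM in any sample, and Ifnk was at 0.0315 to 0.373 FPKM in NC and was listed at 0 in all COM samples.

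Of the 5 receptor genes tested, 2 passed the adjusted p as higher and 1 as lower in COM against NC. Over all 10900 genes tested, 1382 passed as higher and 4423 as lower. Ifnar2 was at 33.2 to 50.8 FPKM in NC (median 45.6), 92.3 to 163 in COM (median 116) and 120 to 143 in COM+Met (median 135), with no overlap between COM and NC and a difference of 1.39 ± 0.16 (log2, limma adjusted p = 1.82e-05). Ifngr2 rose by 0.50 ± 0.13 (limma adjusted p = 0.00479), and Ifngr1 fell by 0.81 ± 0.17 on the same scale (limma adjusted p = 0.00135). Ifnar1 differed by 0.35 (limma adjusted p = 0.0893) and Il10rb by 0.06 (limma adjusted p = 0.59). Among the 3 kinases, Jak2 rose by 2.29 ± 0.28 (limma adjusted p = 3.13e-05) and Tyk2 by 0.60 ± 0.14 (limma adjusted p = 0.00266), while Jak1 differed by 0.05 (limma adjusted p = 0.667).

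Among the transcription factor genes, Stat2 and Irf9 were called higher in COM than in NC, as were 5.99% of all genes tested. Stat2 rose by 2.26 ± 0.28 (log2, limma adjusted p = 3.48e-05), with COM+Met at 88.2 to 94.1 FPKM between 50.5 to 52.2 in COM-1 to COM-3 and 112 to 131 in COM-4 to COM-6. Irf9 rose by 1.40 ± 0.22 (limma adjusted p = 0.000188) but was at 28.5 to 34.7 FPKM in COM and 30.6 to 33.7 in COM+Met, without the split of the members. Of 7 inhibitors, Socs1 and Socs3 were called higher, by 2.26 ± 0.40 and 1.90 ± 0.50 (limma adjusted p = 0.000535 and 0.00641), and the other 5 did not pass. In COM+Met against COM, 0 of the pathway genes named here passed the adjusted p in limma, compared with 13.4% of all genes tested. Jak2 was the nearest with a difference of -0.41 ± 0.15 (limma adjusted p = 0.0829), its 6 COM+Met samples being all below the COM samples.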

How the data were processed

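RNA-seq of 18 BMDM samples was analysed, 6 each of NC, COM and COM+Met, grouped by the sample titles and treatments. The authors deposited FPKM values for 25926 genes, with replicates kept apart, from TruSeq libraries of total RNA. The submitters' processing notes name Bowtie 0.12.2, mm8 and mm9 without their roles. Not given in the sources used here are the quantifier, its annotation, filters and strand setting. FPKM is scaled to gene length and to the sample total, so a gene falls when abundant genes rise, and it keeps no read depth. The most common ratio of low values (under 0.5 FPKM) between samples was shared by 0.185% to 0.417% of genes, so read counts cannot be recovered from them, and no counting interval is given.

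The analysis used log2(FPKM + 1). Genes that averaged 1 FPKM or more in the 12 samples of a comparison were tested with limma 3.58.1 (lmFit, eBayes with trend) in R 4.3.3, in a separate fit per comparison, two-sided, with Benjamini-Hochberg adjustment over all genes tested. Called genes had an adjusted p below 0.05 and differed by 2-fold or more. For single genes an exact permutation test (two-sided) was run over 924 ways to divide 12 samples. The procedure was tested on simulated data with normal noise and the same spread in both groups. That simulation held no sets of libraries and no unequal spread like those of COM and COM+Met, so it does not cover them. Python 3.11.15 with matplotlib 3.10.9 served for the plots, and pandas 2.3.3 and numpy 2.4.6 for the tables.

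The members, their role groups, the pathway and marker lists and the alternatives were chosen with earlier results of these data known. Values by sample are given for the 2 members of each role group with the highest mean FPKM, and for the 6 largest and 3 smallest differences in COM against NC. Others are named where a count of exceptions or a range turns on them. Replicate numbers are shared by the groups, but correlations of the deviations of same-numbered samples from their group means were -0.222 to 0.057, so the numbers were not taken as pairs. GC content and positions came from GENCODE M21 (GRCm38), where all 40 members were found by identifier. The table itself has no coordinates. A gene of the pathway list is not reported here. Promoter windows were taken from RefSeq (GRCm38.p6).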

Additional observations from a re-analysis of the deposited data

Results flagged for a closer look

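Of 120 combinations of a member and a group, 6 held a sample whose distance to its nearest neighbour took up more of the group's range than Dixon's 95% limit for 6 samples allows. By chance the limit is passed in about 1 group in 20 when values are independent and normally spread. The members share the same libraries, and many of their NC and COM values fall into sets. That rate therefore cannot be applied to the count, and no conclusion is drawn from it. Bst2 was highest in COM+Met-6, at 1440 FPKM, and Parp12 in COM+Met-1, at 81.6 FPKM. Lgals9 was highest in NC-2, at 61.2 FPKM. Lowest values were those of Znfx1 in COM+Met-2, at 135 FPKM, and of the neighbours Phf11b and Phf11d in COM+Met-1, at 85.5 and 67.8 FPKM. Of the 6, 5 lay in COM+Met, where the spread of the members was narrowest. Their cause was not tested.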

How the results depend on the processing

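Settings were changed 1 at a time: pseudocounts of 0.1 and 5, no filter or one of 5 FPKM, values rescaled to equal sums (TPM), median-of-ratios factors, quantile normalisation, the replicate block, all 18 samples in the fit, sample weights (arrayWeights), single samples left out and, as listed in the report, sets of libraries left out. Leaving out COM-1 to COM-3, or COM-6 with NC-5 and NC-6, was chosen after seeing the data. In COM against NC all 40 members kept their direction and adjusted p under each setting, 33 were called at 2-fold with arrayWeights (median log2 difference 2.09) and 34 without COM-4 to COM-6, and 40 under every other setting. In COM+Met against NC all 40 were called under each setting, and the median was 2.46 with a pseudocount of 5. With the replicate block the members called were 40 in COM against NC, 40 in COM+Met against NC and 0 in COM+Met against COM, as without it, and 0 of 6 samples correlated best with their own number in any comparison.

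The comparison of COM+Met with COM depended on which sets of COM libraries were kept and how libraries were weighted. Members that passed the adjusted p numbered 1 with TPM (Helz2, lower) and 40 with arrayWeights. They numbered 40 without COM-4 to COM-6 (39 higher) and 21 without COM-1 to COM-3 (all lower). Those called at 2-fold numbered 15 with arrayWeights, 16 without COM-4 to COM-6 and 3 without COM-1 to COM-3. Over all genes, 1850 passed as higher and 4499 as lower of 10373 without COM-4 to COM-6. Without COM-1 to COM-3, 1646 passed as higher and 793 as lower of 10211. Counts over all genes are not given for TPM and arrayWeights, here or in COM against NC. The counts of members under these settings are therefore no result about the members. The median log2 difference moved to 0.79 without COM-4 to COM-6 and to -0.40 without COM-1 to COM-3. With single samples left out, both counts were 0 to 1, the exception being Bst2 (higher) without COM-4 or COM-5 and Helz2 (lower, under 2-fold) without COM-6. Log2 differences whose sign turned were, with median-of-ratios factors, Rtp4 0.00014, with quantile normalisation, Rtp4 0.018, Sp100 0.0024 and Eif2ak2 0.026, with arrayWeights, Rtp4 0.34, Sp100 0.51, Epsti1 0.22, Eif2ak2 0.45 and Ddx60 0.58, and without COM-4 to COM-6, Rtp4 0.38, Sp100 0.56, Epsti1 0.27, Eif2ak2 0.47 and Ddx60 0.63. Without COM-1 to COM-3 they turned for 31 members, to Isg15 -0.082, Isg20 -1.20, Usp18 -0.44, Rsad2 -0.85, Mx1 -1.35, Mx2 -0.89, Cmpk2 -1.32, Herc6 -0.28, Xaf1 -0.63, Parp9 -0.21, Parp12 -0.29, Parp14 -0.21, Dtx3l -0.37, Ifi44 -0.47, Ifi27l2a -0.028, Nmi -0.54, Pml -0.29, Lgals3bp -0.037, Lgals9 -0.17, Uba7 -0.18, Tor3a -0.13, Trim21 -0.24, Trim25 -0.50, Trim30a -0.40, Trim30d -0.41, Znfx1 -0.077, Phf11b -0.89, Phf11d -0.41, Samd9l -0.71, Gvin1 -0.88 and Daxx -0.26. With single samples left out, the lowest and highest differences of members that turned were Isg20 -0.11 to 0.53, Mx1 -0.11 to 0.55, Xaf1 -0.043 to 0.39, Nmi -0.080 to 0.21, Trim25 -0.037 to 0.23, Trim30d -0.021 to 0.28, Samd9l -0.073 to 0.38, Lgals9 -0.011 to 0.13, Rtp4 -0.086 to 0.12, Sp100 -0.19 to 0.19, Eif2ak2 -0.12 to 0.16 and Ddx60 -0.22 to 0.12. The cause of these turns was not tested beyond the order of the libraries given in the report.

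The read depth is unknown, so the precision of low values, such as those of Ifi44 and Mx2 in NC and of Ifnb1 in all groups, cannot be given. Sets of COM libraries were recognised from the values, no label gives a batch, and what sets them apart was not tested. The differences of COM-6 from COM-4 and COM-5 followed GC content and, less closely, transcript length. How reads shared by paralogues, or by the overlapping ends of Dtx3l and Parp9, were assigned is not given in the sources used here.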
